A study of Homo sapiens with 8 samples.

Results

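Lipid droplet and lipoprotein uptake genes were followed by their RNA in the MDA-MB-231 line, which comes from a breast cancer without estrogen receptor, progesterone receptor or HER2 amplification. The members were listed by gene symbol. That choice was made with earlier results of these data known, so their counts beside all genes are descriptive only. They were HILPDA (older symbol C7orf68), PLIN2, PLIN3, VLDLR, LPIN1, PNPLA2, DGAT1, DGAT2 and FABP3, 9 genes of the 19581 distinct names in the table. All 9 were in the table, 8 passed the filter on low values and were tested, and FABP3 was listed at 0 in every library. The cells carried either a scrambled short hairpin RNA (shSC) or, by the labels, a hairpin against CHD4 (shCHD4), the ATPase of the NuRD chromatin remodelling complex, and were kept at 20% or 1% O2 for 24 hours. Each of the 4 groups, shSC at 20% O2, shSC at 1% O2, shCHD4 at 20% O2 and shCHD4 at 1% O2, had 2 libraries of polyadenylated RNA. All are of 1 cell line in culture, and the labels give neither separate cultures for the libraries of a group nor the number of clones or hairpins behind each label. The p-values therefore rest on a spread between libraries that may be technical only.

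Cells store fat as droplets of triacylglycerol and steryl esters under a phospholipid monolayer. The last steps of triacylglycerol synthesis are made by lipins, which turn phosphatidate into diacylglycerol, and by the acyltransferases DGAT1 and DGAT2, which add the final fatty acid. Perilipins coat the droplet and control access of lipases, of which PNPLA2 (adipose triglyceride lipase, ATGL) makes the first cut, and HILPDA is a small protein that binds and inhibits PNPLA2. VLDLR takes up triacylglycerol-rich lipoproteins from outside the cell, and FABP3 carries fatty acids in the cytosol. The hypoxia-inducible factors (HIFs), stabilised at low oxygen, are known to raise HILPDA, PLIN2 and VLDLR in several cell types, and droplets are known to accumulate in hypoxic cancer cells.

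Libraries held 24947627 to 31903585 gene-assigned reads. Values are normalised read counts: each library's reads were scaled by a single factor, without regard to gene length. Sums over markers and ratios between genes therefore hold differences in length, and the ratios are read for their change between groups. CHD4 was not lower under the shCHD4 label, at 299.0 ± 7.9 (SD, n = 2) against 298.6 ± 0.47 at 20% O2 and 293.0 ± 8.64 against 278.9 ± 1.08 at 1% O2. With quantile normalization it passed as higher (log2 0.11 and 0.23, limma adjusted p = 0.0201 and 9.03e-05). Centred on the 40 tested genes nearest on its chromosome, CHD4 passed as higher too (log2 0.20 and 0.22, limma adjusted p = 0.000761 and 0.000267). The libraries are therefore written as labelled shCHD4, and a difference between labels is not given as an effect of lower CHD4. In bulk RNA, fewer cells that express a gene and less RNA per cell cannot be told apart. The low-oxygen markers went with the O2 labels: the carbonic anhydrase gene CA9 was at 0.345 ± 0.195 and 27.98 ± 1.4 under shSC at 20% and 1% O2, and at 0.0921 ± 0.0815 and 4.01 ± 0.674 under the shCHD4 label, and NDRG1 went from 97.7 to 1470 and from 66.9 to 635.8. All 5 markers of a mesenchymal breast cancer line were present, and the summed level of ESR1, PGR and CDH1 was 0.106 to 0.414. Of 6 adipocyte markers only the lipase gene LIPE reached a mean of 1 in any group. The adipocyte list summed to 3.86 to 4.06 and 2.25 to 2.79 under shSC at 20% and 1% O2 and to 7.90 to 9.21 and 7.39 to 7.56 under the shCHD4 label, with LEP at 0 in all libraries. LIPE made up nearly all of these sums, since the other 5 genes together were at 0.134 to 0.524 in every library. Of 6 macrophage markers CD68, also a general lysosomal gene, made up nearly all of a summed level of 112.3 to 125.2.

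At 1% against 20% O2, 4 of the 8 tested members rose under shSC (PLIN2, PLIN3, VLDLR and DGAT2) and none fell, and under the shCHD4 label 5 rose (the same 4 and HILPDA) and DGAT1 fell. Among all 12645 genes tested 35.2% were called under shSC, with 17.4% higher and 17.9% lower, and 23% under the shCHD4 label, with 12.3% higher and 10.7% lower. The members' median log2 change was 0.24 under each label, against -0.011 and -0.0037 for all genes tested. Between labels nearly every member differed, as did most genes: 1 member was higher and 6 were lower under the shCHD4 label at 20% O2, where 75.6% of all genes were called, 37% higher and 38.6% lower. At 1% O2 2 members were higher and 6 lower, where 77.4% of all genes were called, 38.2% higher and 39.2% lower. The members' medians were -0.87 and -0.93, against -0.0091 and -0.0067 for all genes. A member's call between labels is thus near the background, and the size of the difference is what is described. At 20% O2 the share of all genes tested with a higher log2 difference was 98.5% for DGAT2, 98.2% for VLDLR and 95.4% for LPIN1. It was 94.1% for PLIN2, 80.3% for PNPLA2, 71.2% for DGAT1, 41.1% for HILPDA and 5.71% for PLIN3. The libraries of 6 members were higher and of 2 lower at 1% O2 without overlap under shSC, as for 31.1% and 34.3% of all genes, and of 6 higher and 1 lower under the shCHD4 label, as for 32.2% and 33.5%. Between labels 2 members were higher and 6 lower without overlap at each O2 level, as for 42.6% and 43.8% of all genes at 20% O2 and 43.9% and 44.9% at 1% O2. The O2 comparison under shSC shares its 20% O2 libraries with the label comparison at 20% O2 and its 1% O2 libraries with that at 1% O2, and the same holds for the shCHD4 label. A call is an adjusted p under 0.05 by limma with Benjamini-Hochberg adjustment over all genes tested, and folds were taken from log2(value + 0.5).

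**Figure D1:**
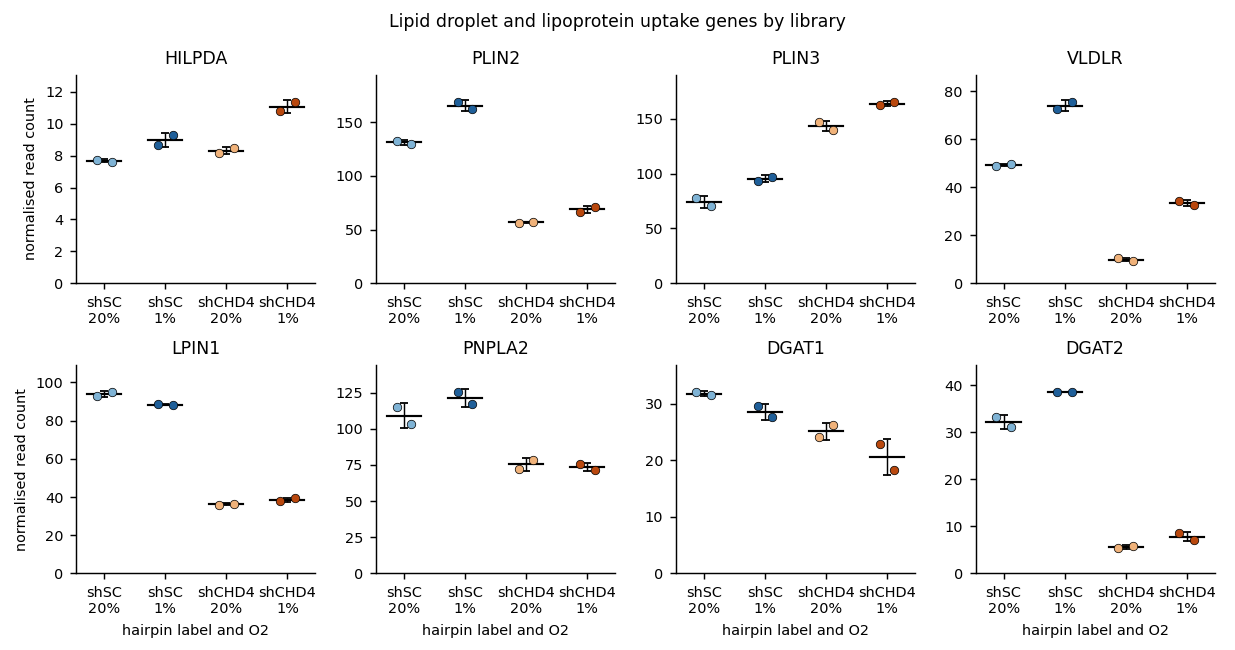
Normalised read count (y axis, from 0) of the 8 tested members in each library (points), by hairpin label and O2 (x axis), with the mean of 2 libraries (line) and SD (bar). PLIN2, VLDLR, LPIN1, PNPLA2, DGAT1 and DGAT2 sit lower in all 4 libraries labelled shCHD4 than in all 4 shSC libraries, and PLIN3 sits higher.

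PLIN2 and PLIN3, the perilipins found in most cell types, coat nascent and mature droplets. PLIN2 protein is stable mainly when bound to a droplet, while PLIN3 moves between the cytosol and droplets. The normalised read counts of PLIN2 were 132.7 and 129.7 under shSC at 20% O2 and 169.1 and 161.9 under shSC at 1% O2. In the libraries labelled shCHD4 they were 56.1 and 57.1 at 20% O2 and 66.3 and 71.3 at 1% O2. No library of one group reached into another group's range, and the order of the groups was shSC at 1%, shSC at 20%, shCHD4 at 1% and shCHD4 at 20% O2. PLIN2 rose with 1% O2 by 1.26-fold under shSC (log2 0.33, 95% interval 0.23 to 0.44, adjusted p = 5.6e-05) and by 1.21-fold under the shCHD4 label (log2 0.28, 0.17 to 0.38, adjusted p = 0.000672). It was 2.31-fold lower under the shCHD4 label at 20% O2 (log2 -1.21, -1.31 to -1.10, adjusted p = 1.36e-13) and 2.39-fold lower at 1% O2 (log2 -1.26, -1.36 to -1.15, adjusted p = 6.76e-14). The O2 changes under the labels differed by -0.055 (95% interval -0.20 to 0.094, adjusted p = 0.742).

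PLIN3 had the opposite order between labels. Its normalised read counts were 77.9 and 70.2 under shSC at 20% O2 and 93.0 and 97.4 under shSC at 1% O2. Under the shCHD4 label they were 147.0 and 140.1 at 20% O2 and 162.3 and 165.7 at 1% O2. The groups did not overlap, and both groups labelled shCHD4 lay above both shSC groups. PLIN3 was 1.93-fold higher under the shCHD4 label at 20% O2 (log2 0.95, 95% interval 0.84 to 1.06, adjusted p = 1.08e-11) and 1.72-fold higher at 1% O2 (log2 0.78, 0.67 to 0.89, adjusted p = 1.72e-10). With 1% O2 it rose by 1.29-fold under shSC (log2 0.36, 0.25 to 0.47, adjusted p = 4.46e-05) and by 1.14-fold under the shCHD4 label (log2 0.19, 0.080 to 0.30, adjusted p = 0.0152). The call under the shCHD4 label was lost, by limma's adjusted p, when replicate 2 at 20% O2 (0.12), replicate 1 at 1% O2 (0.0698) or replicate 2 at 1% O2 (0.111) of that label was left out. It was also lost when genes with low values were kept (0.0583) or the variance trend was dropped (0.0879).

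As PLIN2 was lower and PLIN3 higher under the shCHD4 label, the ratio of PLIN2 to PLIN3 within a library separated the labels more than either gene. The ratio of normalised read counts was 1.78 ± 0.103 (SD, n = 2) under shSC at 20% O2, 1.74 ± 0.111 under shSC at 1% O2, 0.395 ± 0.0182 under the shCHD4 label at 20% O2 and 0.420 ± 0.0157 under that label at 1% O2. It was 4.50-fold lower under the shCHD4 label at 20% O2 and 4.15-fold lower at 1% O2, with no overlap between labels. With 1% O2 the ratio changed 0.979-fold under shSC, where the libraries overlapped, and 1.06-fold under the shCHD4 label. The ratio itself holds the difference in length between the genes, which cancels in its change. No test is given for ratios, since with 2 libraries on each side the smallest two-sided exact permutation p is 0.333.

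**Figure D2:**
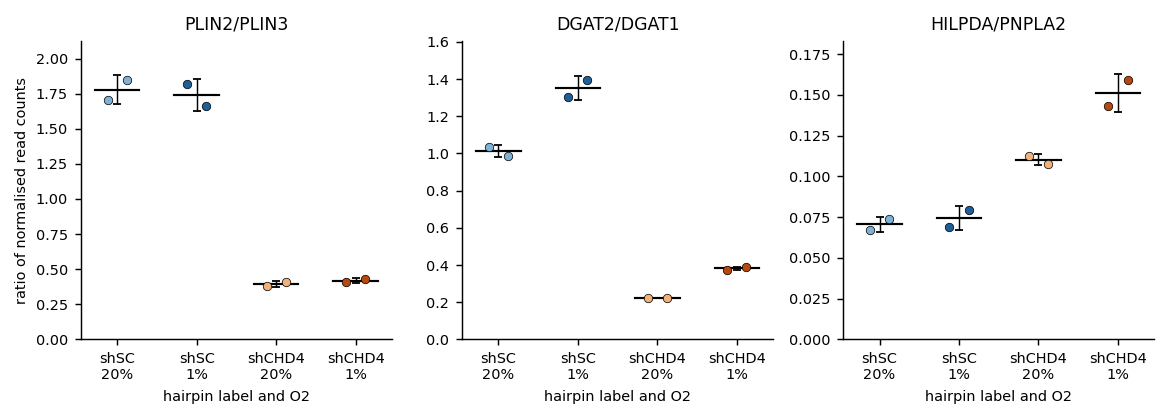
Ratio of normalised read counts within each library (y axis, from 0; points), by hairpin label and O2 (x axis), with the mean of 2 libraries (line) and SD (bar), for PLIN2 over PLIN3, DGAT2 over DGAT1 and HILPDA over PNPLA2. PLIN2 over PLIN3 is near 1.78 and 1.74 under shSC and near 0.395 and 0.420 under the shCHD4 label, and DGAT2 over DGAT1 is higher at 1% than at 20% O2 under each label.

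The promoters of PLIN2, VLDLR and PLIN3, 3 of the 4 members that rose with 1% O2 under both labels, are shown with the core letters of the HIF response element, and that of PNPLA2, which passed under neither label, beside them. HILPDA, DGAT1 and DGAT2 were not matched to a window. Each window runs from 250 bases before to 50 bases after a RefSeq transcript start in GRCh38.p14, a build other than the hg19 of the table, and is written 5′ to 3′ on the gene's own strand. PLIN2 is at chr9:19127443-19127742 (minus strand), VLDLR at chr9:2621537-2621836 (plus strand), PLIN3 at chr19:4867618-4867917 (minus strand) and PNPLA2 at chr11:818664-818963 (plus strand). Capitals mark ACGTG or GCGTG on either strand, so that on the printed strand they also read CACGT or CACGC.
PLIN2: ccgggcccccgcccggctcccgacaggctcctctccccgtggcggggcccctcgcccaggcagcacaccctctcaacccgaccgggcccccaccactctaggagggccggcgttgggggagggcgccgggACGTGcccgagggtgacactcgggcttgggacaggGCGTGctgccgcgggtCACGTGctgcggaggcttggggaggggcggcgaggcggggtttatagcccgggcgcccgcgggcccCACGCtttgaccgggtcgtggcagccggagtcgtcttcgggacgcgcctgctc
VLDLR: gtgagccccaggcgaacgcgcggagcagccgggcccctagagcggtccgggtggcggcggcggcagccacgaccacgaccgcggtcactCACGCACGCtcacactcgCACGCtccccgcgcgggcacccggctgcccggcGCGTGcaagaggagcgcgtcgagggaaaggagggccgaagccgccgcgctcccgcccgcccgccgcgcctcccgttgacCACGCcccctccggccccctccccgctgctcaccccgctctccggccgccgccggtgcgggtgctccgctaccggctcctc
PLIN3: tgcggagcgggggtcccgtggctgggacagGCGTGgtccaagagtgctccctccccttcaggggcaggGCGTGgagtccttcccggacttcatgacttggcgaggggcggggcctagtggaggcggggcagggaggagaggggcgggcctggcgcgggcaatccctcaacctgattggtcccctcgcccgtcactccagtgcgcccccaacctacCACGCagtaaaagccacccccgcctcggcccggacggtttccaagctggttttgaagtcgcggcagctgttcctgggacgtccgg
PNPLA2: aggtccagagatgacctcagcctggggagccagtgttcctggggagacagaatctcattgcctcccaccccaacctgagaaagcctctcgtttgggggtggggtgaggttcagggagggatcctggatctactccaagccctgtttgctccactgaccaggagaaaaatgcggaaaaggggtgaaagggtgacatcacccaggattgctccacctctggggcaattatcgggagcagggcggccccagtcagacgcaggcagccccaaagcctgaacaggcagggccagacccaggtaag
The PLIN2 window held ACGTG 3 times and GCGTG 2 times. One pair of the ACGTG matches overlaps, at 68 and 69 bases before the start on opposite strands, and together they spell CACGTG, the E-box letters. VLDLR held GCGTG 5 times and PLIN3 3 times, both with no ACGTG, and PNPLA2 held neither. The letters were not limited to members that rose: GCGTG was in 2 of the 3 windows of LPIN1, which passed under neither label, and FABP3, with 0 reads, held ACGTG 1 time and GCGTG 2 times. In all, 6 of the members' 8 windows held ACGTG or GCGTG. Of 35116 windows of this length, 48.4% held ACGTG or GCGTG, 36.5% held GCGTG, 21.4% held ACGTG and 7.26% held CACGTG. Of the 9 members, 6 had a window among them. The G and C content of the 4 windows was 76.7% for PLIN2, 79% for VLDLR, 69% for PLIN3 and 59.3% for PNPLA2. A direct repeat of AGGTCA spaced by 1 base on either strand, a consensus of the PPAR response element, was in none of the members' 8 windows and in 0.0228% of all. These are matches of letters, not sites shown to be bound.

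VLDLR, the receptor for triacylglycerol-rich lipoproteins, was the member that changed most with O2. Its normalised read counts were 48.9 and 49.5 under shSC at 20% O2 and 72.4 and 75.6 under shSC at 1% O2. In the libraries labelled shCHD4 they were 10.4 and 9.42 at 20% O2 and 34.3 and 32.6 at 1% O2. The groups did not overlap, and the libraries labelled shCHD4 at 1% O2 were still below those of shSC at 20% O2. VLDLR rose with 1% O2 by 1.499-fold under shSC (log2 0.58, 95% interval 0.45 to 0.72, adjusted p = 1.81e-06) and by 3.27-fold under the shCHD4 label (log2 1.71, 1.57 to 1.85, adjusted p = 8.33e-13). Of all genes tested, 2.95% had a higher log2 change than VLDLR under shSC and 0.158% under the shCHD4 label. The rise under the shCHD4 label exceeded that under shSC by 1.126 on the log2 scale (95% interval 0.93 to 1.32, adjusted p = 8.95e-07). With all libraries VLDLR was the only member called in this interaction, in which 4.36% of all genes were called, 2.21% higher and 2.14% lower. With replicate 1 of shSC at 20% O2 left out, PLIN3 (log2 -0.25, adjusted p = 0.037) and PNPLA2 (log2 -0.27, adjusted p = 0.0499) were called too. VLDLR was 4.79-fold lower under the shCHD4 label at 20% O2 (log2 -2.26, -2.40 to -2.12, adjusted p = 5.08e-16) and 2.19-fold lower at 1% O2 (log2 -1.13, -1.27 to -0.997, adjusted p = 1.25e-11). Every one of these VLDLR calls held under the 18 alternatives, the interaction with values of 1.06 to 1.19 (adjusted p = 2.56e-18 to 0.00726). All 18 compare folds, so the interaction is a difference between folds. As normalised read counts the rises were of similar size. The VLDLR mean went from 49.2 to 74.0 under shSC and from 9.89 to 33.5 under the shCHD4 label.

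HILPDA, a known HIF target and the inhibitor of PNPLA2, rose with 1% O2 under the shCHD4 label and did not pass under shSC. Its normalised read counts were 7.74 and 7.61 under shSC at 20% O2 and 8.69 and 9.31 under shSC at 1% O2. Under the shCHD4 label they were 8.16 and 8.49 at 20% O2 and 10.8 and 11.4 at 1% O2, on 187 to 322 reads per library. The groups did not overlap, and within each label the 1% O2 libraries were the higher ones. HILPDA rose with 1% O2 under the shCHD4 label by 1.31-fold (log2 0.39, 95% interval 0.20 to 0.59, adjusted p = 0.00509). Leaving out replicate 1 at 20% O2 or replicate 2 at 1% O2 of that label ended this call (limma adjusted p = 0.0516 and 0.0638). Of all genes tested, 4.38% had a higher log2 change than HILPDA under the shCHD4 label. Under shSC its log2 difference was 0.22 (95% interval 0.023 to 0.41, adjusted p = 0.0761), and 15.8% of all genes tested had a higher one. It passed when the variance trend was dropped (adjusted p = 0.027). In the same libraries CA9 rose by 5.09 on the log2 scale. The O2 changes under the labels differed by 0.18 (95% interval -0.095 to 0.45, adjusted p = 0.51). Between labels the HILPDA difference was 0.11 at 20% O2 (adjusted p = 0.287), and at 1% O2 it was 1.22-fold higher under the shCHD4 label (log2 0.29, adjusted p = 0.00844). Leaving out replicate 1 of shSC or replicate 2 of the shCHD4 label at 1% O2 ended that call (limma adjusted p = 0.0615 and 0.0716). In GENCODE release 29, 2 other transcribed loci lie over HILPDA on its own strand, neither named in the table, and the sources used here do not say how reads over such loci were counted.

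PNPLA2, the triacylglycerol lipase that HILPDA inhibits, did not pass for O2 under either label. Its normalised read counts were 115.1 and 103.0 under shSC at 20% O2 and 125.4 and 116.8 under shSC at 1% O2. In the libraries labelled shCHD4 they were 72.3 and 78.7 at 20% O2 and 75.4 and 71.5 at 1% O2. The libraries labelled shCHD4 overlapped between O2 levels and lay below all shSC libraries. The log2 difference for 1% O2 was 0.15 under shSC (95% interval 0.025 to 0.28, adjusted p = 0.0579) and -0.040 under the shCHD4 label (-0.17 to 0.087, adjusted p = 0.674). Under shSC it passed with replicate 1 at 20% O2 left out (log2 0.23, adjusted p = 0.0102), with replicate 2 at 1% O2 left out (log2 0.20, adjusted p = 0.0472) and by edgeR on recovered reads (adjusted p = 0.0428). PNPLA2 was 1.44-fold lower under the shCHD4 label at 20% O2 (log2 -0.53, adjusted p = 2.57e-07) and 1.65-fold lower at 1% O2 (log2 -0.72, adjusted p = 3.33e-09). The ratio of HILPDA to PNPLA2 was 0.0706 ± 0.00471 (SD, n = 2) and 0.0745 ± 0.00738 under shSC at 20% and 1% O2, which overlapped, and 0.1103 ± 0.00349 and 0.151 ± 0.0115 under the shCHD4 label, which did not. It was 1.56-fold higher under the shCHD4 label at 20% O2 and 2.03-fold higher at 1% O2, with no overlap between labels. The ratio was not centred on the 40 tested genes nearest to each gene on its chromosome. Their median log2 label differences also went towards a higher ratio. At 20% and 1% O2 they were 0.27 and 0.27 around HILPDA and -0.19 and -0.26 around PNPLA2.

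DGAT2 and DGAT1 catalyse the same final step of triacylglycerol synthesis without being related in sequence, DGAT2 mostly with newly made fatty acids and DGAT1 mostly with fatty acids from outside or from lipolysis. The normalised read counts of DGAT2 were 33.1 and 31.1 under shSC at 20% O2 and 38.54 and 38.48 under shSC at 1% O2. Under the shCHD4 label they were 5.35 and 5.86 at 20% O2 and 8.59 and 7.11 at 1% O2, the last 4 on 143 to 250 reads per library. The groups did not overlap, and the label separated the libraries far more than O2 did. DGAT2 was 5.35-fold lower under the shCHD4 label at 20% O2 (log2 -2.42, 95% interval -2.61 to -2.23, adjusted p = 2.57e-14) and 4.69-fold lower at 1% O2 (log2 -2.23, -2.42 to -2.04, adjusted p = 8.1e-14). DGAT2 rose with 1% O2 by 1.196-fold under shSC (log2 0.26, adjusted p = 0.0321) and by 1.36-fold under the shCHD4 label (log2 0.45, adjusted p = 0.00167). The call under shSC was lost, by limma's adjusted p, when replicate 2 at 20% O2 (0.155), replicate 1 at 1% O2 (0.119) or replicate 2 at 1% O2 (0.105) of shSC was left out. Keeping genes with low values (0.0949) or dropping the variance trend (0.0672) ended it as well. The call under the shCHD4 label was lost with replicate 1 at 1% O2 left out (0.0515).

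The normalised read counts of DGAT1 were 32.1 and 31.5 under shSC at 20% O2 and 29.5 and 27.6 under shSC at 1% O2. In the libraries labelled shCHD4 they were 24.1 and 26.2 at 20% O2 and 22.9 and 18.3 at 1% O2. The groups did not overlap, and the 1% O2 libraries were the lower ones within each label, the opposite of DGAT2. With 1% O2 DGAT1 differed by -0.15 under shSC (95% interval -0.33 to 0.028, adjusted p = 0.178) and fell by 0.29 on the log2 scale under the shCHD4 label (adjusted p = 0.0224). That call was lost when replicate 2 at 1% O2 (log2 -0.13, limma adjusted p = 0.36) or replicate 2 at 20% O2 (0.149) of the shCHD4 label was left out. Keeping genes with low values (0.101) or dropping the variance trend (0.0988) ended it as well. DGAT1 was 1.26-fold lower under the shCHD4 label at 20% O2 (log2 -0.33, adjusted p = 0.00181) and 1.38-fold lower at 1% O2 (log2 -0.47, adjusted p = 7.35e-05). The ratio of DGAT2 to DGAT1 was 1.01 ± 0.0321 (SD, n = 2) under shSC at 20% O2, 1.35 ± 0.0645 under shSC at 1% O2, 0.223 ± 0.00112 under the shCHD4 label at 20% O2 and 0.382 ± 0.00895 under that label at 1% O2. It was 1.34-fold and 1.71-fold higher at 1% O2 under shSC and the shCHD4 label, and 4.53-fold and 3.54-fold lower under the shCHD4 label at 20% and 1% O2, with no overlap in any of these comparisons. In GENCODE release 29 DGAT1 overlaps HSF1 on the opposite strand, and whether the counting used strand was not stated in the sources used here.

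LPIN1, a lipin that makes diacylglycerol used by both DGAT enzymes and that also acts as a coactivator in the nucleus, was lower under the shCHD4 label, and its O2 differences did not pass. Other lipins make the same product. Its normalised read counts were 92.8 and 94.996 under shSC at 20% O2 and 88.4 and 88.2 under shSC at 1% O2. Under the shCHD4 label they were 35.7 and 36.6 at 20% O2 and 37.7 and 39.3 at 1% O2. The groups did not overlap, but the O2 groups of 1 label lay close together. The log2 difference for 1% O2 was -0.087 under shSC (95% interval -0.20 to 0.021, adjusted p = 0.202) and 0.090 under the shCHD4 label (-0.019 to 0.20, adjusted p = 0.221). LPIN1 was 2.58-fold lower under the shCHD4 label at 20% O2 (log2 -1.36, -1.47 to -1.26, adjusted p = 3.62e-14) and 2.28-fold lower at 1% O2 (log2 -1.19, -1.30 to -1.08, adjusted p = 2.7e-13). FABP3, the fatty acid carrier of heart and muscle, had 0 reads in all 8 libraries. A count of 0 allows up to 3 reads per library, a normalised read count of 0.101 to 0.124, for counting error only.

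**Figure D3:**
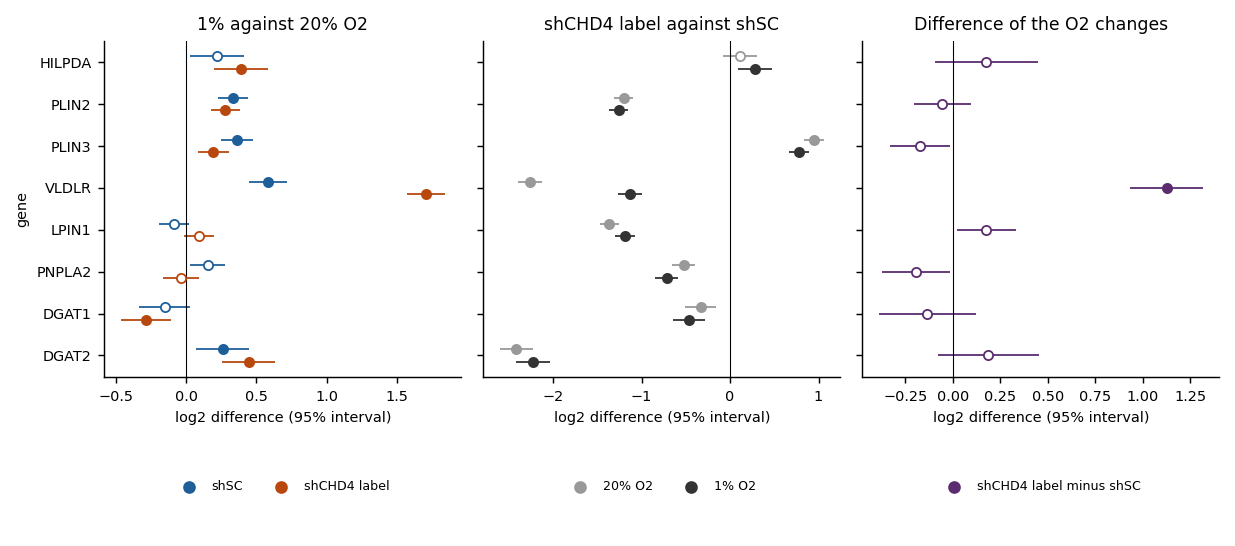
Log2 difference (x axis) with its 95% interval (bars) for each tested member (y axis), for 1% against 20% O2 under each label (left), shCHD4 label against shSC at each O2 level (middle) and the difference between the O2 changes (right), on separate x scales. Filled points are adjusted p under 0.05 by limma and open points are not; VLDLR is the only filled point on the right, at 1.126.

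RNA differences between labels can be shared by neighbouring genes, so each member was set beside the median of the 40 tested genes nearest to it on its chromosome. The neighbours of DGAT1 had a median log2 difference of -0.53 at 20% O2 and -0.57 at 1% O2, lower than DGAT1 itself (-0.33 and -0.47). Centred on them, DGAT1 was at 0.20 (adjusted p = 0.0573) and 0.099 (adjusted p = 0.332), so its lower level under the shCHD4 label was not seen relative to its neighbours. The neighbours of HILPDA were at 0.27 at each O2 level, and HILPDA centred on them was at -0.16 (adjusted p = 0.118) and 0.020 (adjusted p = 0.85). For PLIN2, PLIN3, VLDLR, LPIN1, PNPLA2 and DGAT2 the neighbours' medians lay between -0.26 and 0.17, and the label differences kept their direction and their call after centring, with PNPLA2 at -0.33 (adjusted p = 2.79e-05) and -0.46 (adjusted p = 4.54e-07).

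**Figure D4:**
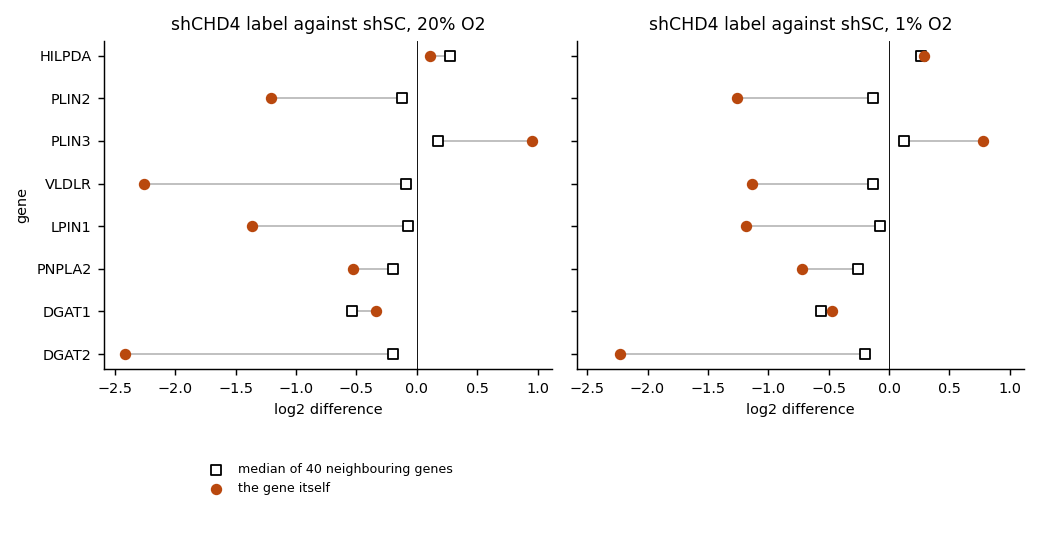
Log2 difference of the shCHD4 label against shSC (x axis) for each tested member (y axis, filled circles) and the median of its 40 neighbouring genes (open squares), at 20% O2 (left) and 1% O2 (right). DGAT1 at -0.33 and -0.47 lies to the right of its neighbours at -0.53 and -0.57, while VLDLR at -2.26 and -1.13 lies far to the left of its own.

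The other genes of droplet and fatty acid handling were described in 7 lists with 78 tested genes. At 1% O2 12 of the 78 rose and 21 fell under shSC (median log2 -0.048), and 5 rose and 11 fell under the shCHD4 label (median -0.030, or -0.034 with 2 genes of at most 3 reads in a group set at their bound). Over all genes tested the shares that rose and fell were 17.4% and 17.9% under shSC and 12.3% and 10.7% under the shCHD4 label, and each list's counts below stand beside these. Among droplet coat and assembly genes 1 of 9 rose and 2 fell under shSC and 0 rose and 1 fell under the shCHD4 label (medians -0.087 and -0.077), with METTL7A, a droplet-associated methyltransferase-like protein, at -0.90 under shSC (adjusted p = 0.000299). For triacylglycerol and steryl ester synthesis 2 of 15 rose and 4 fell under shSC (median 0.041), with the acyltransferase gene AGPAT2 at 0.43 (adjusted p = 0.000102), and 0 rose and 2 fell under the shCHD4 label (median -0.014). In the fatty acid binding and transport list 0 of 6 rose and 1, DBI, the acyl-CoA binding protein, fell under shSC (-0.35, adjusted p = 0.000777), and 0 of 6 passed under the shCHD4 label (medians -0.076 and -0.020).

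Of 9 lipolysis genes 3 rose and 2 fell under shSC (median 0.041), and 1 rose and 1 fell under the shCHD4 label (median 0.014). G0S2, like HILPDA a small inhibitor of PNPLA2, rose from 249.7 ± 11.4 to 364.9 ± 0.432 normalised read counts under shSC (SD, n = 2, log2 0.55, adjusted p = 2.3e-07) and from 42.3 ± 2 to 55.1 ± 2.49 under the shCHD4 label (log2 0.38, adjusted p = 3.7e-05). MGLL, which cuts the last fatty acid from glycerol, rose under shSC (93.6 to 133.5, log2 0.51, adjusted p = 1.83e-07), and LIPE, hormone-sensitive lipase, fell (3.74 to 2.27, log2 -0.63, adjusted p = 0.00115). Between labels G0S2 was 5.85-fold lower under the shCHD4 label at 20% O2 (adjusted p = 3.21e-18) and 6.58-fold lower at 1% O2 (adjusted p = 1.31e-18), while LIPE was 2.04-fold and 2.77-fold higher (adjusted p = 9.08e-07 and 7.16e-09). Side by side, the label differences at 20% and 1% O2 were 0.11 and 0.29 for HILPDA and -2.55 and -2.72 for G0S2 on the log2 scale.

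Of 15 lipoprotein receptors, lipases and their regulators 2 rose and 5 fell under shSC (median -0.072), and 2 rose and 3 fell under the shCHD4 label (median -0.063). ANGPTL4, the secreted inhibitor of lipoprotein lipase, rose from 5.81 ± 1.03 to 50.5 ± 5.09 under shSC (SD, n = 2, adjusted p = 3.84e-13) and from 4.05 ± 0.513 to 21.96 ± 0.993 under the shCHD4 label (adjusted p = 2.57e-11). LRP1, a large receptor of the same family as VLDLR, rose under both labels (log2 0.49, adjusted p = 0.000137, and log2 0.70, adjusted p = 6.11e-06). LRP8, the apolipoprotein E receptor closest in structure to VLDLR, fell under both labels (log2 -0.63, adjusted p = 6.16e-08, and log2 -0.37, adjusted p = 8.14e-05). Between labels at 20% O2 the endothelial lipase gene LIPG went from 6.83 under shSC to 0.148 on 8 reads, and lipoprotein lipase, LPL, went from 0.275 on 14 reads to 3.30 ± 0.52 on 183 reads. LPL passed the filter on low values only through the libraries labelled shCHD4, so no p-value is given for it.

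Fatty acid oxidation genes rose in 2 and fell in 4 of 17 under shSC and rose in 2 and fell in 2 under the shCHD4 label (medians -0.019 and -0.029). CPT1A, which admits fatty acids to mitochondria, fell under both labels (log2 -0.43, adjusted p = 4.72e-06, and log2 -0.25, adjusted p = 0.00231). The second call was lost when centred on neighbouring genes (adjusted p = 0.0964). Under shSC ACADVL, the very long chain acyl-CoA dehydrogenase, rose (log2 0.32, adjusted p = 5.67e-05). Of 7 PPAR and coactivator genes 2 rose and 3 fell under shSC and 0 rose and 2 fell under the shCHD4 label (medians -0.079 and -0.023), with PPARGC1A at -0.85 (adjusted p = 5.5e-06) and PPARG at -0.45 (adjusted p = 2.38e-05) under shSC. PPARG, the nuclear receptor of adipocyte differentiation, was higher under the shCHD4 label at 20% O2 (74.9 ± 4.87 against 35.0 ± 0.481, SD, n = 2, adjusted p = 1.43e-11) and at 1% O2 (71.5 ± 1.14 against 25.6 ± 1.66, adjusted p = 1.63e-13). Over the 78 genes 28 were higher and 30 lower under the shCHD4 label at 20% O2 (median 0.020) and 28 and 32 at 1% O2 (median -0.018), beside 37% and 38.6% of all genes at 20% O2 and 38.2% and 39.2% at 1% O2. FABP5, the epidermal fatty acid binding protein, was at 20.4 ± 0.674 on 1042 reads under shSC at 20% O2 and had 0 reads under the shCHD4 label, and at 1% O2 it had 946 reads under shSC and 1 under that label. The triacylglycerol synthesis genes GPAT2 (6.56-fold, adjusted p = 9.4e-16) and ACSL4 (2.07-fold, adjusted p = 4.95e-12) were lower under the shCHD4 label at 20% O2 and AGPAT1 was 1.91-fold higher (adjusted p = 1.15e-12). Their calls held under the alternatives, but the sizes of 2 did not. The log2 difference ran from -1.15 to -0.46 for ACSL4 and from 0.51 to 1.04 for AGPAT1, and from -3.00 to -2.63 for GPAT2.

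**Figure D5:**
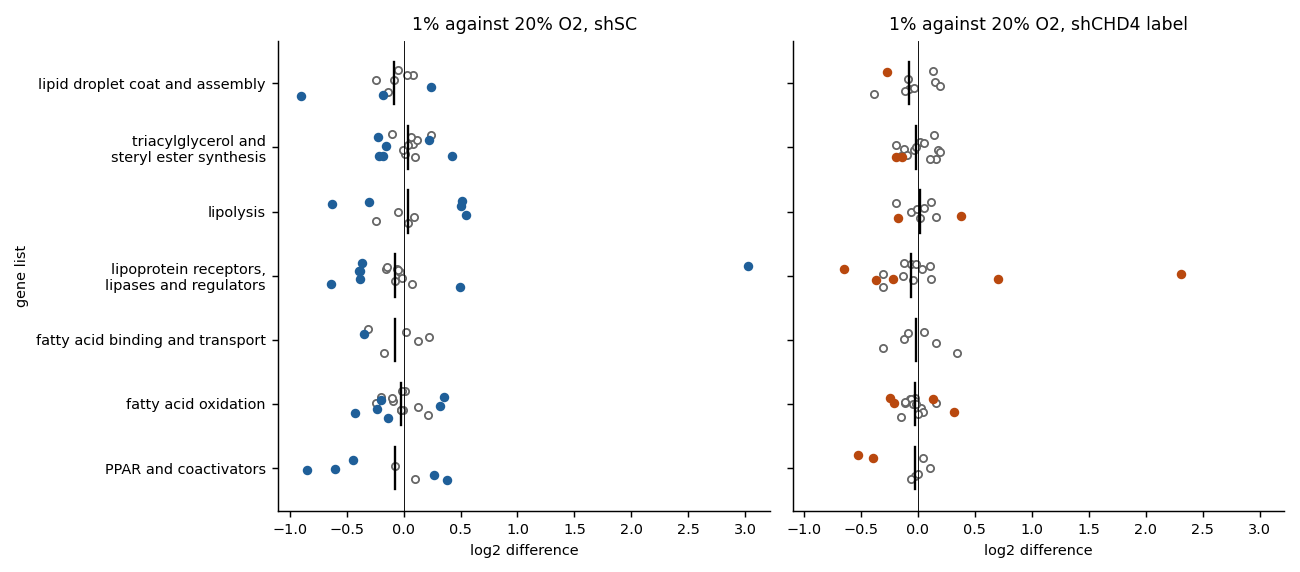
Log2 difference at 1% against 20% O2 (x axis) of each tested gene (points) in the 7 lists of droplet and fatty acid genes (y axis), under shSC (left) and the shCHD4 label (right), with vertical jitter and the list's median (line). Filled points are adjusted p under 0.05 by limma and open points are not; the point at 3.02 on the left and 2.31 on the right is ANGPTL4.

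Among 10757 other genes whose mean level was 5 or more, those with the most similar profile over the 8 libraries were found by the root mean square difference of log2 values centred on each gene's mean. For VLDLR these were VEGFA (0.207), LIMCH1 (0.275) and ARRDC3 (0.293). VEGFA rose by 0.57 on the log2 scale with 1% O2 under shSC and by 1.16 under the shCHD4 label. It was picked for its likeness over these same libraries, so this pattern largely follows from the choice. For PLIN2 the most similar genes were RGMB (0.035), RNMT (0.042) and NRBF2 (0.046). LPIN1 was nearest to KIF18A (0.032), CNTRL (0.040) and BCL6 (0.041), and DGAT2 to FUT1 (0.049), PPP1R3B (0.089) and PCK2 (0.105). No tested member was among the 3 genes nearest to any of these 4 members, and the nearest gene to VLDLR was farther from it than the nearest genes of PLIN2, LPIN1 and DGAT2 were from theirs.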

How the data were processed

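Polyadenylated RNA of 8 MDA-MB-231 libraries was measured, 2 in each of 4 groups of hairpin label and O2. Per the submitters' processing notes, featureCounts, TopHat, edgeR, Picard 1.127, FastQC 0.11.2 and bcl2fastq 2.17 were used with hg19; neither annotation nor strand setting is stated there. The deposited table is named FPKM, but its values are a signal, deposited as reads scaled by a single factor in each library: 100% of values in each library were whole multiples of 1 step within 0.01 reads, and recovered totals were 24947627 to 31903585 reads. Of 19583 rows, 27 had names turned into dates and 2 names were repeated; these were kept and not named.

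Genes with a mean of at least 1 (12645) were taken to log2(value + 0.5) and fitted by limma 3.58.1 (R 4.3.3) as 4 group means together. A variance trend was used, residual degrees of freedom were 4 and prior ones 13.9, and two-sided p-values were adjusted by Benjamini-Hochberg with a threshold of 0.05. Because the values are not FPKM, count tests on recovered reads (edgeR 4.0.16, DESeq2 1.42.0) were run as alternatives, with other pseudocounts (0.1 and 1), filters (none and 5), quantile normalization, no variance trend, a replicate block, each library left out and centring on 40 neighbours in RefSeq order. In the 5 comparisons edgeR called 4490, 2959, 9570, 9861 and 563 genes. On simulated data for 1% against 20% O2 under shSC over 12645 genes, 96.5% of 57 genes changed by 0.5 on the log2 scale were recovered. The spread between simulated libraries was set by hand and not taken from these data, and only genes with a mean of at least 5 were changed. Far fewer genes were changed than were called here. The share recovered is thus a check of the code and not the power for the members. Members and lists were chosen with earlier results of these data known. Of each list the rule named up to 3 called genes with the largest change in each O2 or label comparison, 74 in all; the text keeps to genes among the 57 calls that held under every alternative that gave a value (their other comparisons are given where named), a narrowing made after their values were seen.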

Additional observations from a re-analysis of the deposited data

Results flagged for a closer look

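The O2 change of VLDLR differed between labels, by 1.126 on the log2 scale (limma interaction, adjusted p = 8.95e-07), with libraries at 48.9 and 49.5 against 72.4 and 75.6 under shSC and 10.4 and 9.42 against 34.3 and 32.6 under the shCHD4 label. The difference held under all 18 alternatives, with values of 1.06 to 1.19. All of these compare folds. As normalised read counts the VLDLR means rose by similar amounts, from 49.2 to 74.0 under shSC and from 9.89 to 33.5 under the shCHD4 label.

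Other named genes also had O2 changes that differed between labels. CA9 rose less under the shCHD4 label on this scale, by -2.16 (adjusted p = 2.63e-05), on 18 and 5 reads per group at 20% O2, and the difference was -0.88 with edgeR (adjusted p = 0.665) and -0.84 with DESeq2 (adjusted p = 0.736). NDRG1 differed by -0.67 (adjusted p = 1.87e-06). MGLL differed by -0.39 (adjusted p = 0.00174), and did not pass without a variance trend (adjusted p = 0.0514). ANGPTL4 differed by -0.71 (adjusted p = 0.0123). By limma's adjusted p this was lost with low genes kept (0.134), with no variance trend (0.12), and with replicate 2 of shSC at 1% O2 (0.067), replicate 1 of the shCHD4 label at 20% O2 (0.0581) or replicate 1 of that label at 1% O2 (0.0634) left out. PPARG differed by 0.38 (adjusted p = 0.0164). This was lost with low genes kept (0.0892), with no variance trend (0.111), and with replicate 2 of shSC at 1% O2 (0.0615), replicate 2 of the shCHD4 label at 20% O2 (0.0962) or replicate 1 or 2 of that label at 1% O2 (0.0851 and 0.0604) left out.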

How the results depend on the processing

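Of 40 member results (8 genes in 5 comparisons) 25 kept their direction and their side of the threshold under all 18 alternatives, and 688 of 720 values did. With each library left out, member calls for O2 under the shCHD4 label ran from 3 (without shCHD4 1% O2 replicate 2) to 6, against 6, and in the interaction from 1 to 3 (without shSC 20% O2 replicate 1), against 1. Genes called ran from 1326 to 3468 and from 245 to 994, against 2903 and 551. The first count was 1344 without shCHD4 20% O2 replicate 1, and 1326 and 1451 without shCHD4 1% O2 replicates 1 and 2. The second was 994 without shSC 20% O2 replicate 1, 317 without shSC 1% O2 replicate 1, 322 and 360 without shCHD4 20% O2 replicates 1 and 2, and 251 and 245 without shCHD4 1% O2 replicates 1 and 2. With low genes kept these counts were 1920 and 155, and with no variance trend 1815 and 155. Directions turned when centred on neighbours for HILPDA at 20% O2 between labels (-0.16), DGAT1 between labels (0.20 and 0.099) and PNPLA2 for O2 under the shCHD4 label (0.0023). With 1 library left out, values crossed 0 for PNPLA2 in that comparison (-0.0999 to 0.020, above 0 without shCHD4 20% O2 replicate 2), for the DGAT1 interaction (-0.29 to 0.022, above 0 without shCHD4 1% O2 replicate 2) and for CHD4 between labels at 20% O2 (-0.025 to 0.029, below 0 without shCHD4 20% O2 replicate 2). The cause was not tested.

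The labels number the libraries of each group. Deviations of same-numbered libraries correlated at -0.203 to 0.189 between groups, which does not settle whether the numbers pair them. The main fit used no pairing. With the replicate block 4370, 2795, 9536, 9755 and 536 genes were called in the 5 comparisons, and no member call changed. HILPDA had 187 to 322 reads per library, and its log2 differences had a standard error of 0.0917, against 0.05004 for PLIN2 with 1500 to 4817 reads.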
